A study of Homo sapiens with 6 samples.

Results

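The long arm of chromosome 13 (13q) was examined by chromatin immunoprecipitation sequencing (ChIP-seq) for the kinase CDK2 and the enzyme PARP1. Its members were the 10 kb windows of chromosome 13 that start at position 19000000 or later in hg19 and held a mean of at least 10 reads over 6 libraries. These were 9516 of the 9617 windows of the arm, and of 278395 windows in the whole genome that met the same minimum. The distal band, from 110000000 to the chromosome end at 115169878, held 476 of them and the arm before it 9040. Sums in blocks of 1 Mb were used where a block held at least 50 member windows, which left 96 blocks, 5 in the band and 91 before it. The windows nearest to the minimum had means of 10.2 and 10.8 reads inside it and 9.17 and 9.0 outside it. The 1900 windows before the arm held 0 reads in all 6 libraries.

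Chromosome 13 is acrocentric, and its short arm carries arrays of ribosomal RNA genes that the hg19 assembly leaves out. The long arm is poor in genes. Its middle, around bands 13q21 and 13q31, is known for gene deserts between large neural genes such as the protocadherins PCDH9, PCDH17 and PCDH20 and the transmembrane proteins SLITRK1, SLITRK5 and SLITRK6. The last band, 13q34, is by contrast dense in genes. It carries COL4A1 and COL4A2, which encode collagen chains of basement membranes, LAMP1, a protein of the lysosomal membrane, CUL4A, the scaffold of a ubiquitin ligase, TFDP1, the dimer partner of E2F transcription factors, and GAS6, a ligand of receptor tyrosine kinases. No gene table of hg19 was used here, so no window below is assigned to a gene.

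The cells were T47D-MTVL, a line derived from the T47D human breast cancer line, with an integrated reporter driven by the promoter of mouse mammary tumour virus. The study asked how CDK2 activates PARP1 when breast cancer cells meet a progestin. CDK2 is known for driving cells into and through DNA synthesis with cyclins E and A, and PARP1 is an abundant chromatin protein that attaches ADP-ribose chains to itself and to other proteins. Cells were kept with hormone-stripped serum and then for 1 day without serum. CDK2 chromatin was taken at 0 min without hormone and after 5 and 30 min with 10 nM R5020, a synthetic progestin, and PARP1 chromatin at the same 3 times, with 1 library for each antibody and time. Differences therefore have no replicate check, no p-value is given, and each comparison sets 1 library against another in 1 cell line.

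The 6 libraries held between 40097131 and 63448449 reads, of which between 1175073 and 1914269 fell in members. Ratios below are ratios of summed reads after division by each library's total. Their 95% intervals cover counting error, widened by the dispersion between neighbouring windows of each library. That dispersion, which is 1 for independent reads, ran over 0, 5 and 30 min through 7.43, 52.2 and 24.0 in the CDK2 libraries and 6.11, 11.4 and 8.62 in the PARP1 libraries. It includes real differences between neighbours, and an interval says nothing about how much a second library would differ. An input library was not analysed here. Some ratios are also given under sparse-window scaling, in which the summed reads of the sparsest compared windows of the genome replace the library totals. This moved all log2 ratios by 0.35 for CDK2 at 5 against 0 min, by 0.12 for CDK2 at 30 against 0 min, by -0.22 for CDK2 at 30 against 5 min, and by 0.31 for CDK2 against PARP1 at 5 min.

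Before hormone the arm was covered in 2 levels in both antibodies. Fitting a single step to the log2 median reads of 100 kb bins placed it at 79300001 in all 3 PARP1 libraries and in the CDK2 library of 0 min. In the CDK2 libraries of 5 and 30 min it lay at 78800001 and at 79400001. In CDK2 at 0 min the median window held 185 reads after the step and 125 before it, a ratio of 1.48. The same ratio was 1.53 in the CDK2 library of 5 min and also in that of 30 min. In PARP1 at 0 min the medians were 233 reads after the step and 155 before it, a ratio of 1.5, and the ratio was 1.51 at 5 min and 1.49 at 30 min. Relative to the median window of the genome in PARP1 at 0 min, the level was 1.28 after the step and 0.852 before it. The step thus had much the same position and size in every library, and it was looked for after the density had been plotted. Whether the cells carry more copies of the end of the arm was not tested.

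**Figure D1:**
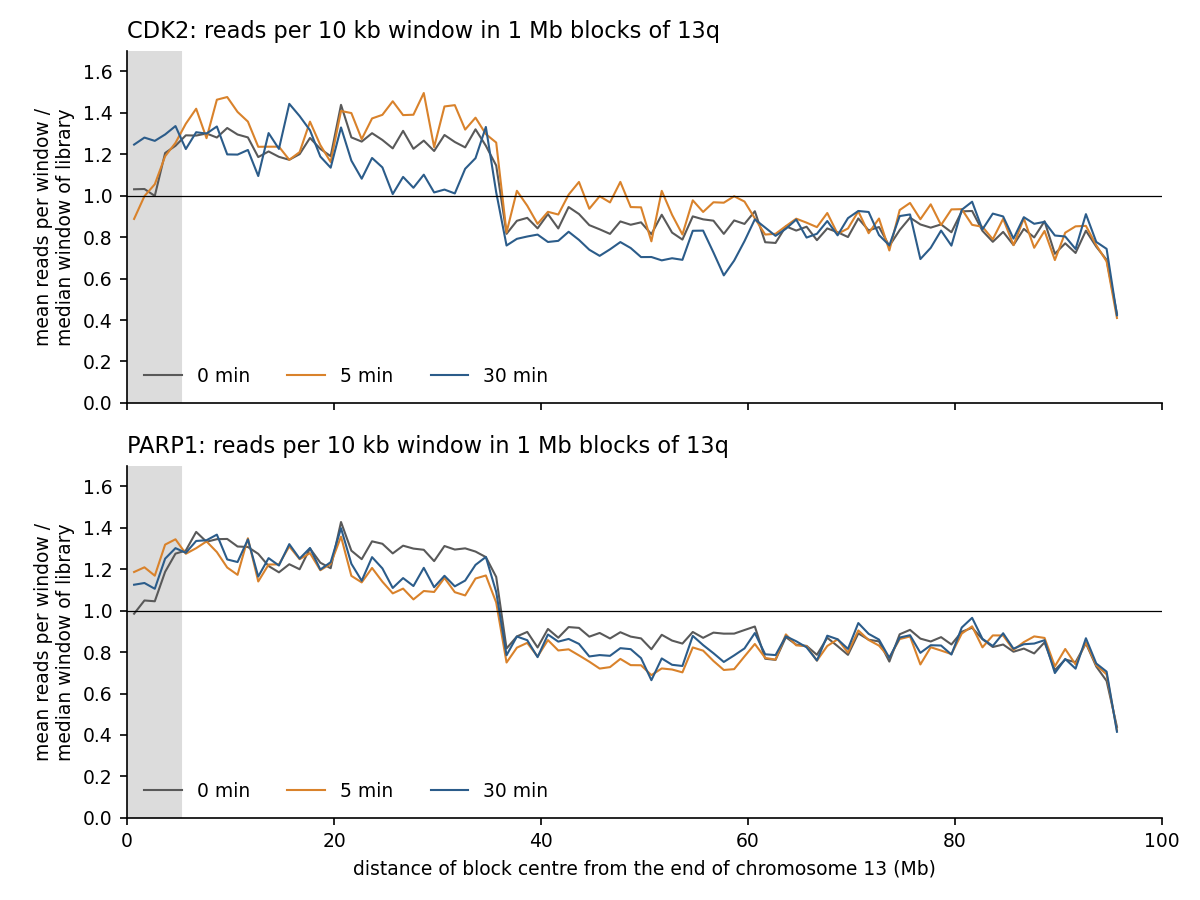
Mean reads per 10 kb window in 96 blocks of 1 Mb on 13q, divided by the median window of the same library, against the distance of the block centre from the chromosome end (Mb), for CDK2 (top) and PARP1 (bottom) at 0, 5 and 30 min; the distal band is shaded. All 6 lines drop where the fitted step lies, and inside the shaded band PARP1 at 5 and 30 min and CDK2 at 30 min lie above their own 0 min line.

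The distal band was set apart from the arm next to it at 0 min by fewer reads. In PARP1 at 0 min its median window held 203 reads, while those of 80 to 90 Mb, 90 to 100 Mb and 100 to 110 Mb held 236, 236 and 238. At 5 min the band had 237 PARP1 reads and the same stretches 212, 237 and 238. At 30 min the band had 249 and the stretches 242, 260 and 266. The band was thus below all 3 stretches at 0 min, level with 90 to 100 Mb at 5 min, and above only 80 to 90 Mb at 30 min.

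In CDK2 the order of the band and the same stretches differed at 30 min. In the band the median CDK2 window held 164, 196 and 163 reads at 0, 5 and 30 min. In 80 to 90 Mb it held 187, 248 and 135 reads, in 90 to 100 Mb 189, 233 and 154, and in 100 to 110 Mb 188.5, 237.5 and 157. The band was thus sparser than each of these stretches at 0 and 5 min and denser than each at 30 min. At 30 min it differed least from 100 to 110 Mb, the stretch next to it.

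PARP1 had more reads in the distal band after R5020 and fewer in the arm before it. The band held 114040 reads at 5 min against 96623 at 0 min, a depth-scaled ratio of 1.13 (95% interval 1.1 to 1.15). The rest of the arm held 1613163 reads at 5 min against 1632928 at 0 min, a ratio of 0.942 (0.936 to 0.948). At 30 min the ratio to 0 min was 1.07 (1.05 to 1.09) in the band, with 117594 reads, and 0.967 (0.962 to 0.973) before it, with 1796675 reads. The comparisons of 5 and of 30 min share the 0 min library. Directly at 30 against 5 min the band had a ratio of 0.951 (0.926 to 0.976) and the rest of the arm 1.03 (1.02 to 1.03), so both lay nearer to their 0 min level at 30 than at 5 min.

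The 5 blocks of the band formed a slope in PARP1 at 5 min. From 110000001 to the end their ratios to 0 min were 1.06 (1.01 to 1.12), 1.12 (1.06 to 1.18), 1.12 (1.06 to 1.20), 1.16 (1.1 to 1.23) and 1.21 (1.14 to 1.29). Each interval lay above 1 and each block had a higher ratio than the one before it, although neighbouring intervals overlap. At 30 min the same blocks had 1.03 (0.978 to 1.08), 1.06 (1.01 to 1.11), 1.06 (1.00 to 1.12), 1.09 (1.03 to 1.14) and 1.15 (1.08 to 1.22). The order was kept and each ratio was closer to 1 than at 5 min. The last block, 114000001 to 115000000, held 18456 reads in 81 windows at 5 min, against 14526 at 0 min, and ranked 105 of 2811 blocks of the genome from the highest. The remaining 11 windows, up to 115169878, had 1.03 (0.870 to 1.22) at 5 min and 1.06 (0.908 to 1.23) at 30 min, so for PARP1 their intervals included 1. For CDK2 they had 1.05 (0.775 to 1.41) at 5 min and 1.27 (1.00 to 1.61) at 30 min, the last interval lying just above 1.

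**Figure D2:**
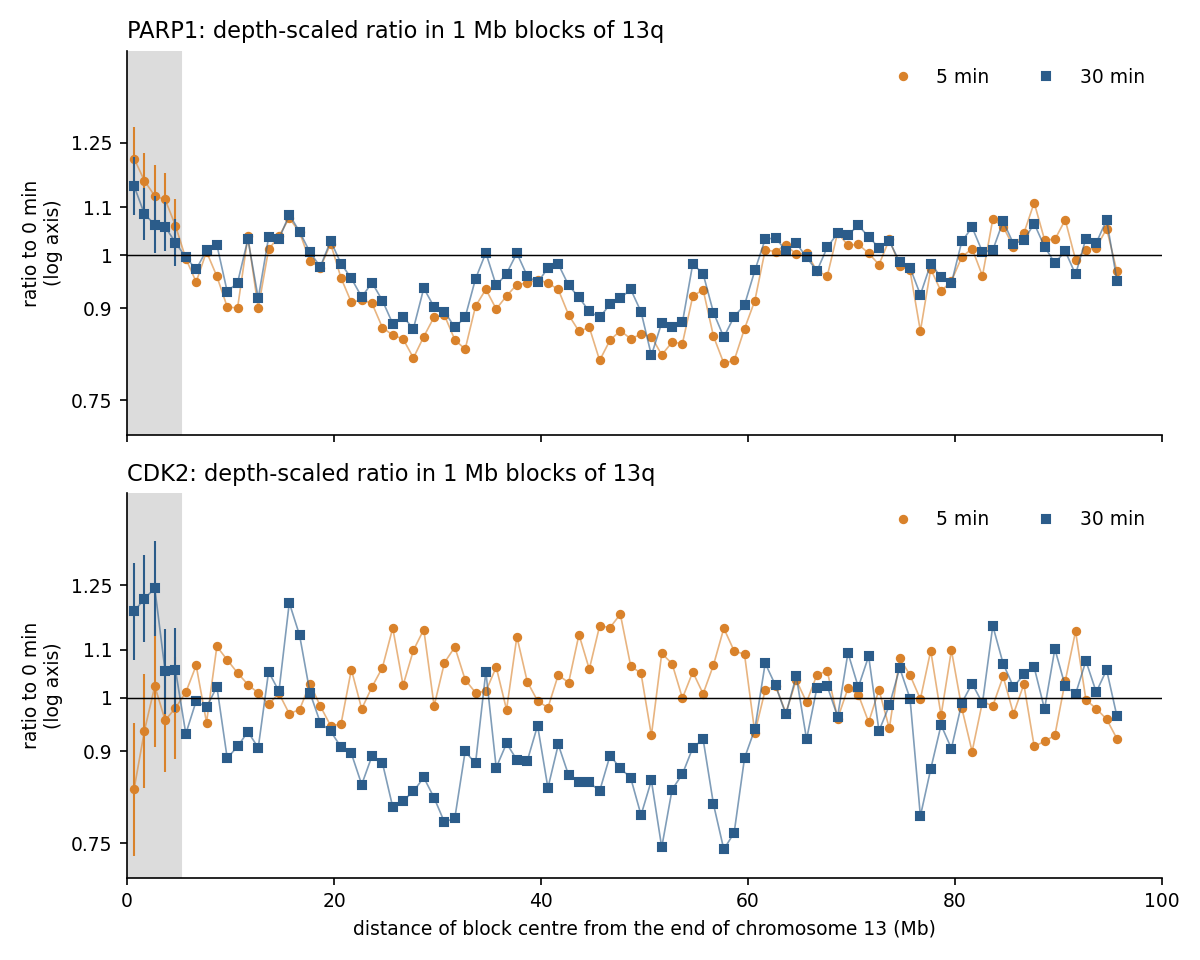
Depth-scaled ratio to 0 min (log axis) in 96 blocks of 1 Mb on 13q against the distance of the block centre from the chromosome end (Mb), for PARP1 (top) and CDK2 (bottom) at 5 and 30 min; the distal band is shaded, and bars there are 95% intervals of counting error widened by the dispersion. PARP1 at 5 min climbs to 1.21 in the last block drawn and dips to 0.807 in the interior, and CDK2 at 5 and at 30 min lie on opposite sides of 1 over much of the arm.

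For CDK2 the band was higher at 30 min and not at 5 min. It held 80043 reads at 30 min against 78780 in the deeper 0 min library, a depth-scaled ratio of 1.14 (1.1 to 1.19). The rest of the arm had 0.934 (0.925 to 0.944), with 1095030 reads at 30 min against 1318416 at 0 min, which turned to 1.02 under sparse-window scaling. At 5 min the band had 96076 reads and a ratio to 0 min of 0.952 (0.906 to 1.00), an interval that reaches 1 and a value that turned to 1.21 under sparse-window scaling. The rest of the arm had 1736895 reads and a ratio of 1.03 (1.02 to 1.04). Directly at 30 against 5 min the ratio was 1.20 (1.13 to 1.27) in the band and 0.909 (0.896 to 0.922) before it. Under sparse-window scaling these became 1.03 and 0.778.

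Within the band, CDK2 at 30 min was uneven. The first 2 blocks had ratios to 0 min of 1.06 (0.973 to 1.15) and 1.05 (0.969 to 1.15). The next 3 had 1.24 (1.13 to 1.37), 1.22 (1.12 to 1.33) and 1.19 (1.08 to 1.31). The intervals thus left out 1 in the last 3 blocks, and in PARP1 at 5 min in all 5. At 5 min the CDK2 ratios were 0.980, 0.957, 1.02, 0.937 and 0.835, and the interval left out 1 in the last block only (0.732 to 0.952). Under sparse-window scaling all 5 were above 1, with 1.06 in the last block and between 1.19 and 1.3 in the others.

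Scaling cannot move the ratio in the band divided by the ratio in the rest of 13q, since library totals cancel. For PARP1 this quotient was 1.19 (95% interval 1.16 to 1.23) at 5 against 0 min, 1.11 (1.08 to 1.13) at 30 against 0 min and 0.926 (0.901 to 0.951) at 30 against 5 min. For CDK2 it was 0.926 (0.880 to 0.974) at 5 against 0 min, 1.22 (1.18 to 1.27) at 30 against 0 min and 1.32 (1.2 to 1.4) at 30 against 5 min. The same quotient was 1.21 (1.17 to 1.24) for PARP1 at 5 min and 1.23 (1.18 to 1.29) for CDK2 at 30 min when the band was set against 80 to 110 Mb, beyond the density step. Against 19 to 54 Mb it was 1.12 (1.09 to 1.15) and 1.13 (1.09 to 1.18). The CDK2 value at 5 against 0 min was 0.924 (0.877 to 0.974) against 80 to 110 Mb, but 0.951 (0.901 to 1.00) against 19 to 54 Mb, an interval that includes 1. Both of these reference stretches were chosen after seeing the data. The 3 quotients against 19 to 54 Mb given here were each nearer to 1 than those against the whole rest of the arm. That stretch ends where the long runs of low blocks in PARP1 at 5 min and CDK2 at 30 min begin. For these comparisons the nearer values therefore follow from the choice of stretch.

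**Figure D3:**
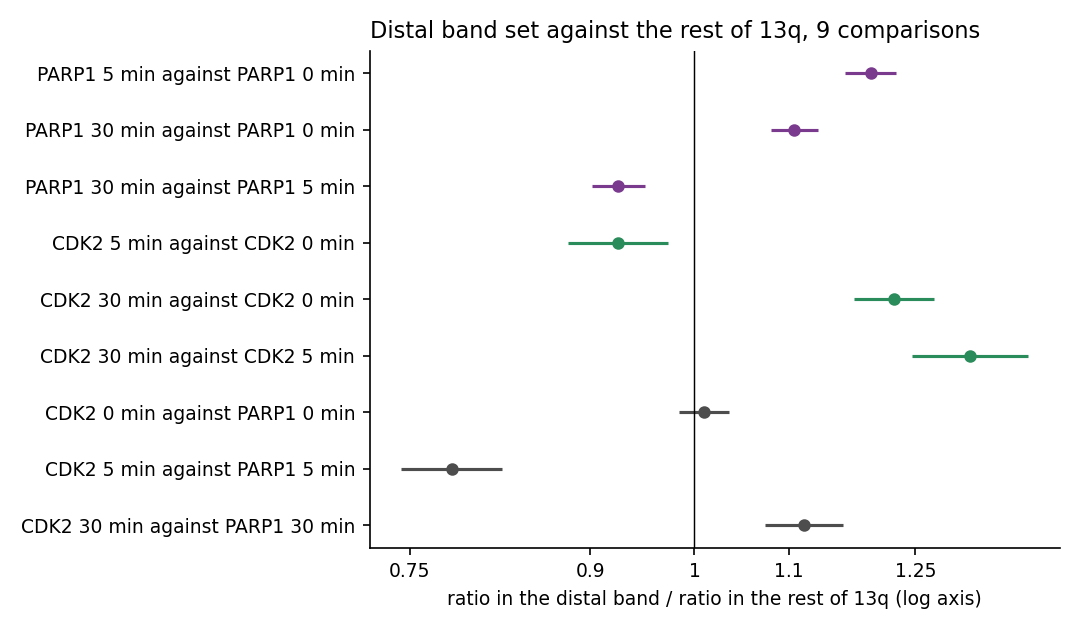
Ratio in the distal band divided by the ratio in the rest of 13q (log axis) for each of 9 comparisons between libraries; points are values and bars 95% intervals of counting error widened by the dispersion. CDK2 against PARP1 at 0 min is the comparison whose interval includes 1, and the values run from 0.782 for CDK2 against PARP1 at 5 min to 1.32 for CDK2 at 30 against 5 min.

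Before hormone the antibodies gave nearly the same picture of the arm. CDK2 against PARP1 at 0 min had a ratio of 1.01 (0.984 to 1.03) in the band and 0.998 (0.992 to 1.00) before it, and all 96 blocks lay between 0.929 and 1.06. At 5 min the ratio was 0.853 (0.811 to 0.896) in the band, which turned to 1.05 under sparse-window scaling, and 1.09 (1.08 to 1.1) before it. The quotient was 0.782 (0.743 to 0.824). At 30 min it was 1.08 (1.04 to 1.12) in the band and 0.964 (0.955 to 0.974) before it, which turned to 1.03 under sparse-window scaling, with a quotient of 1.12 (1.07 to 1.16). Since antibodies pull down chromatin with unequal yield, these values describe only where on the arm the reads lay. The CDK2 library at 5 min had the highest dispersion of the 6, and its part in the 5 min values was not tested.

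The interior of the arm held the lowest ratios. In stretches of 10 Mb, PARP1 at 5 min had its lowest ratio to 0 min at 60 to 70 Mb, with 0.850 (0.832 to 0.868), and the next at 80 to 90 Mb, with 0.865 (0.850 to 0.881). The start of the arm, 19 to 30 Mb, had 1.03 (1.01 to 1.06), and 40 to 50 Mb had 1.00 (0.981 to 1.02). At 30 min PARP1 had 0.897 (0.881 to 0.914) at 60 to 70 Mb and 1.02 (1.00 to 1.04) at 19 to 30 Mb. CDK2 at 30 min had 0.842 (0.814 to 0.872) at 60 to 70 Mb, 0.852 (0.828 to 0.877) at 80 to 90 Mb and 1.04 (1.00 to 1.07) at 19 to 30 Mb. At 5 min CDK2 had 1.08 (1.04 to 1.12) at 60 to 70 Mb, 1.06 (1.03 to 1.1) at 80 to 90 Mb and 0.982 (0.944 to 1.02) at 19 to 30 Mb, which turned to 1.2 under sparse-window scaling. The arm before the band is therefore not of 1 kind, and its first part lay near 1.

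The run of low blocks was long and without gaps in PARP1. At 5 min all 41 blocks from 54 to 95 Mb had a ratio to 0 min below 1, between 0.807 and 0.956. At 30 min the longest such run was 23 blocks, from 54 to 77 Mb. In CDK2 at 30 min it was 26 blocks, from 54 to 80 Mb, between 0.741 and 0.947. All 3 runs began at 54 Mb, although PARP1 at 5 and at 30 min share a 0 min library. Sparse-window scaling moves every block of the CDK2 run up by 0.12 on the log2 scale, those of the PARP1 run at 5 min by 0.05 and those at 30 min by 0.04. This leaves the whole PARP1 run at 5 min below 1, but not the whole of the other 2 runs.

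Named blocks before the band were the 3 lowest and 3 highest of each comparison with 0 min. The block 57000001 to 58000000 was the lowest both for PARP1 at 5 min and for CDK2 at 30 min. It held 122, 179 and 80.03 reads per window in CDK2 at 0, 5 and 30 min and 162, 137 and 157 in PARP1. Its PARP1 ratio at 5 min was 0.807 (0.754 to 0.865) and its CDK2 ratio at 30 min 0.741 (0.657 to 0.834), rank 2790 and rank 2807 of 2811 blocks from the highest. For PARP1 at 5 min the block before it had 0.812 (0.758 to 0.869) and 69000001 to 70000000 had 0.812 (0.759 to 0.869). For PARP1 at 30 min the lowest was 64000001 to 65000000, with 0.820 (0.769 to 0.875), followed by 57000001 to 58000000 with 0.850 (0.80 to 0.903) and 87000001 to 88000000 with 0.865 (0.823 to 0.908). For CDK2 at 30 min 63000001 to 64000000 had 0.744 (0.665 to 0.831) and 56000001 to 57000000 had 0.765 (0.684 to 0.856).

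The highest block before the band was 99000001 to 100000000 in PARP1 at 30 min and in CDK2 at 30 min. It held 175, 217 and 188 reads per window in CDK2 at 0, 5 and 30 min and 223, 252 and 275 in PARP1. Its ratio to 0 min was 1.21 (1.11 to 1.31) in CDK2 at 30 min, 1.08 (1.03 to 1.14) in PARP1 at 30 min and 1.08 (1.02 to 1.14) in PARP1 at 5 min. For CDK2 at 30 min 31000001 to 32000000 followed with 1.15 (1.04 to 1.28) and 98000001 to 99000000 with 1.13 (1.04 to 1.23). For PARP1 at 5 min the first was 27000001 to 28000000, with 1.11 (1.04 to 1.18), and the third 31000001 to 32000000, with 1.07 (1.01 to 1.15). For PARP1 at 30 min 20000001 to 21000000 had 1.07 (1.01 to 1.14) and 30000001 to 31000000 had 1.07 (1.01 to 1.13). These blocks lie on both sides of the low interior.

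The highest CDK2 blocks at 5 min lay in the low interior of PARP1. They were 67000001 to 68000000, with 1.18 (1.06 to 1.32), 69000001 to 70000000, with 1.15 (1.03 to 1.29), and 68000001 to 69000000, with 1.15 (1.02 to 1.29). The first of them held 19739 reads at 5 min against 13053 at 0 min and ranked 12 of 2811. The lowest were 33000001 to 34000000, with 0.899 (0.797 to 1.01), 27000001 to 28000000, with 0.908 (0.798 to 1.03), and 26000001 to 27000000, with 0.917 (0.811 to 1.04). Their intervals include 1, and under sparse-window scaling these 3 had 1.14, 1.16 and 1.17. The block 69000001 to 70000000 was thus among the 3 highest of CDK2 and among the 3 lowest of PARP1 at 5 min, and 27000001 to 28000000 was among the 3 lowest of CDK2 and the highest of PARP1 before the band.

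Counts of blocks past a ratio of 1.1 or 0.9 were read against the genome. For PARP1 at 5 min, 5 blocks of 13q were at 1.1 or above, 5.21% of 96 against 18.9% of all 2811 blocks, and 27 were at 0.9 or below, 28.1% against 17.5%. Of the 5 higher ones 4 were in the band, and of the 27 lower ones 0. For PARP1 at 30 min 1 block was higher, in the band, against a background of 10.4%, and 16 were lower, 16.7% against 8.93%. For CDK2 at 30 min 7 were higher, of which 3 in the band, 7.29% against 24.2%, and 36 were lower, 37.5% against 25.6%. For CDK2 at 5 min 11 were higher, 11.5% against 5.94%, and 2 lower, 2.08% against 6.62%.

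The split depended on scaling. Under sparse-window scaling it became 8 higher and 23 lower for PARP1 at 5 min, against 28.0% and 10.2% of all blocks of the genome under the same scaling, and 4 and 8 for PARP1 at 30 min, against 18.5% and 4.13%. For CDK2 at 30 min it became 32 higher, 33.3% against 44.0%, and 11 lower, 11.5% against 8.36%. With CDK2 at 5 min the split became 95 and 0, against 98.0% and 0% of all blocks, so this scaling lifted nearly the whole genome past the limit. For CDK2 at 30 min it was 12 and 24 with TMM factors, against 31.1% and 17.5%, and 16 and 23 with median-of-ratios factors, against 32.6% and 16.2%. The CDK2 split at 5 min was 29 and 1 with TMM factors, against 19.3% and 1.85%, and 32 and 1 with median-of-ratios factors, against 20.6% and 1.64%.

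Blocks that were lower for PARP1 were also lower for CDK2 at 30 min. Over the 96 blocks the Spearman correlation between the PARP1 ratio at 5 min and the CDK2 ratio at 30 min, which share no library, was 0.875, and the Pearson correlation 0.879. It was 0.858 by Spearman over the 91 blocks before the band and 0.908 over all 2811 blocks of the genome. On 13q 81 of 96 blocks lay on the same side of 1, against 2459 of 2811 in the genome. Between PARP1 and CDK2 at 5 min the Spearman correlation was -0.60 on 13q and -0.39 in the genome. Here 26 of the 96 blocks lay on the same side, against 1009 of 2811 in the genome. Blocks are neighbours on 1 chromosome and share the depth of their library, so the correlations only describe them. Base composition was not measured. The ratios were only loosely related to read density, with Spearman correlations of -0.20 for PARP1 at 5 min with CDK2 density at 0 min and -0.28 for CDK2 at 30 min with PARP1 density at 0 min.

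**Figure D4:**
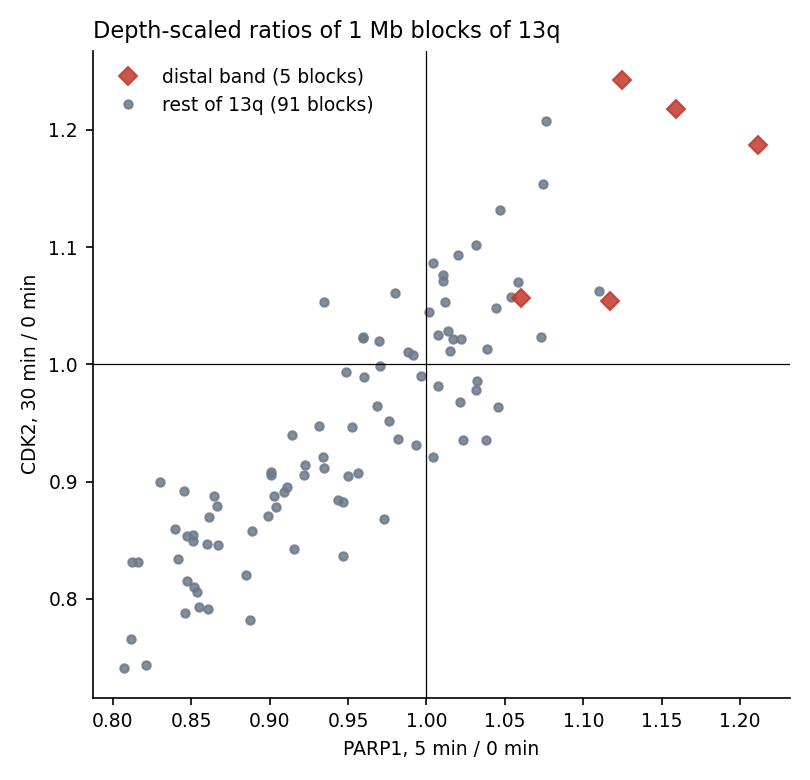
CDK2 ratio at 30 against 0 min plotted against the PARP1 ratio at 5 against 0 min for 96 blocks of 1 Mb, 5 in the distal band (diamonds) and 91 in the rest of 13q (circles). Points run from the lower left, at 0.807 and 0.741, to the upper right, where 3 of the 5 band blocks exceed 1.1 on both axes.

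Summed over all of 13q, PARP1 was lower after hormone, with a ratio to 0 min of 0.952 (0.946 to 0.958) at 5 min and 0.973 (0.968 to 0.978) at 30 min. Under sparse-window scaling these became 0.984 and 0.998, the latter close to 1. CDK2 at 30 min had 0.946 (0.937 to 0.956), which turned to 1.03 under sparse-window scaling. CDK2 at 5 min had 1.02 (1.01 to 1.04), but the median of single windows was 0.976. Since that median was 0.955 over all windows of the genome, the arm stood above the genome on either measure. The genome outside 13q had 1.00 for PARP1 at 5 and at 30 min and for CDK2 at 30 min, and 0.999 for CDK2 at 5 min. Division by library totals holds these values near 1, since the arm has a small share of the reads.

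Single windows past a ratio of 2 or 0.5 were fewer than in the genome for PARP1 in the higher direction. At 5 min 37 windows of 13q were higher, 0.389% against 0.93% of all windows compared, and 205 were lower, 2.15% against 1.79%. In the band 7 of 476 windows were higher and 1 lower. At 30 min 34 were higher, 0.357% against 0.452%, and 45 lower, 0.473% against 0.635%. CDK2 at 5 min had 712 higher, 7.48% against 6.22%, and 1531 lower, 16.1% against 16.2%. CDK2 at 30 min had 404 higher, 4.25% against 5.5%, and 1309 lower, 13.8% against 11.6%. Of the 476 band windows 10 had more CDK2 reads by this limit at 5 min and 81 had fewer, while at 30 min 34 had more and 24 fewer. The many CDK2 windows in both directions go with the dispersions of 52.2 and 24.0 in these libraries, and the part of clumped reads in them was not tested. Under sparse-window scaling the split became 40 higher and 32 lower for PARP1 at 30 min, against 0.542% and 0.536% of all windows. It became 1658 and 967 for CDK2 at 5 min, against 15.5% and 10.7%, and 586 and 1054 for CDK2 at 30 min, against 7.83% and 9.44%.

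The windows named for their ratio to 0 min had a mean of at least 100 reads, and their intervals are exact conditional binomial ones that cover counting error only. Window 21120001 to 21130000 had 77, 241 and 164 PARP1 reads at 0, 5 and 30 min, a ratio of 2.98 (2.30 to 3.91) at 5 min. In the band 111200001 to 111210000 had 178, 436 and 416 PARP1 reads, a ratio of 2.34 (2.0 to 2.8) at 5 min. In both windows PARP1 was above its 0 min count at both later times, but that shared count was part of the choice. Window 32210001 to 32220000 had 141, 37 and 115 PARP1 reads, a ratio of 0.25 (0.169 to 0.362) at 5 min, and 79140001 to 79150000 had 193, 54 and 148, a ratio of 0.267 (0.194 to 0.362). In both the PARP1 count was lowest at 5 min, the time for which they were picked.

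At 30 min PARP1 had 91, 215 and 285 reads over the 3 times in 22510001 to 22520000, a ratio of 2.75 (2.17 to 3.53), and 72, 178 and 227 in 27360001 to 27370000, a ratio of 2.77 (2.12 to 3.66). It had 219, 214 and 90 reads in 25850001 to 25860000, a ratio of 0.361 (0.279 to 0.464), and 195, 133 and 88 in 58660001 to 58670000, a ratio of 0.397 (0.305 to 0.513). The higher windows were also high at 5 min, against the same 0 min count that was part of the choice. Of the lower ones the first was not low at 5 min.

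CDK2 windows went to greater extremes. Window 23100001 to 23110000 had 28, 289 and 27 CDK2 reads at 0, 5 and 30 min, a ratio of 8.06 (5.46 to 12.3) at 5 min, and 69880001 to 69890000 had 81, 549 and 68, a ratio of 5.29 (4.18 to 6.77). Window 84610001 to 84620000 had 232, 0 and 218 CDK2 reads and was at least 99.1-fold lower at 5 min, with 3 reads in that library as the floor, and 83800001 to 83810000 had 193, 0 and 195 and was at least 82.4-fold lower. In all 4 the count at 30 min was close to that at 0 min. They were picked for an extreme count at 5 min in 1 library with a dispersion of 52.2. The counts therefore cannot show a return over time. At 30 min CDK2 had 85, 386 and 367 reads in 20960001 to 20970000, a ratio of 4.86 (3.83 to 6.23), and 54, 146 and 247 in 48350001 to 48360000, a ratio of 5.15 (3.82 to 7.04). It had 130, 94 and 1 in 72520001 to 72530000, a ratio of 0.00865 (0.000217 to 0.0491), and 101, 237 and 1 in 51550001 to 51560000, a ratio of 0.0111 (0.000279 to 0.0635). Both ratios rest on 1 read, under the floor of 3 used above, and cannot be set against the folds of the empty windows.

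Among members, empty windows were found only in the CDK2 libraries of 5 and 30 min. These also had the highest dispersions, 52.2 and 24.0. With 1 library for each time, hormone and library cannot be told apart. CDK2 at 5 min had 0 reads in 80 members, 0.841% (exact 95% interval 0.667 to 1.05%), against 1.43% of all windows of the genome, and 1 of them was in the band. CDK2 at 30 min had 13, 0.137% (0.0728 to 0.233%), against 0.211%. These intervals treat windows as independent, and cover neither the clumping of reads nor the difference to a second library. The other 4 libraries had 0 such members, which allows a share of up to 0.0315% each with 3 windows as the floor, and 0.0388% by the exact interval. In the 80 windows empty at 5 min the median CDK2 count was 97 at 0 min and 79.5 at 30 min, and the median PARP1 count at 5 min was 128. Since members had to average 10 reads over the 6 libraries, reads in the other libraries are a condition of membership here. Among windows of the arm with at least 1 read in any of the 6 libraries, 102 were empty in CDK2 at 5 min. A further 55 windows of the arm were empty in all 6.

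The 5 windows with the most reads on average lay in 3 places of the interior and at the band's edge. The foremost, 110070001 to 110080000, lies at the start of the band and held 482, 716 and 314 CDK2 reads and 373, 264 and 298 PARP1 reads at 0, 5 and 30 min. The others were 63620001 to 63630000 and its neighbour 63630001 to 63640000, with means of 393.0 and 343 reads over the 6 libraries, 108620001 to 108630000, with 346, and 106200001 to 106210000, with 330 reads.

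13q was set against chromosomes 4 and 18, which are likewise gene-poor. Its PARP1 ratio at 5 min divided by that of chromosome 4 was 1.01 (0.998 to 1.01), and its CDK2 ratio at 30 min divided by that of chromosome 4 was 1.02 (1.01 to 1.03). Divided by the ratio of chromosome 18 the values were 0.961 (0.951 to 0.970) and 0.964 (0.949 to 0.979). For CDK2 at 5 min they were 1.00 (0.988 to 1.02) for chromosome 4 and 1.04 (1.03 to 1.06) for chromosome 18. The arm thus lay close to chromosome 4 and further from the genome than chromosome 18 for PARP1 at 5 min and CDK2 at 30 min.

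The distal band was also set against ends of the same length, 5169878 bases, on the other chromosomes, each divided by the rest of its own chromosome. For PARP1 at 5 min the quotient exceeded 1 on 22 of 23 chromosomes, and that of chromosome 13, 1.19, ranked 5. For CDK2 at 30 min it exceeded 1 on 22 of 23, and chromosome 13, with 1.22, ranked 8. For PARP1 at 30 min chromosome 13 ranked 6. For CDK2 at 5 min it exceeded 1 on 2 of 23 chromosomes, and chromosome 13, with 0.926, ranked 22. Chromosome 4 had 1.08 (1.05 to 1.11) for PARP1 at 5 min and 1.09 (1.04 to 1.14) for CDK2 at 30 min, and chromosome 18 had 1.09 (1.05 to 1.12) and 1.14 (1.09 to 1.2). The higher end of chromosome 13 was therefore shared with most chromosome ends.

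**Figure D5:**
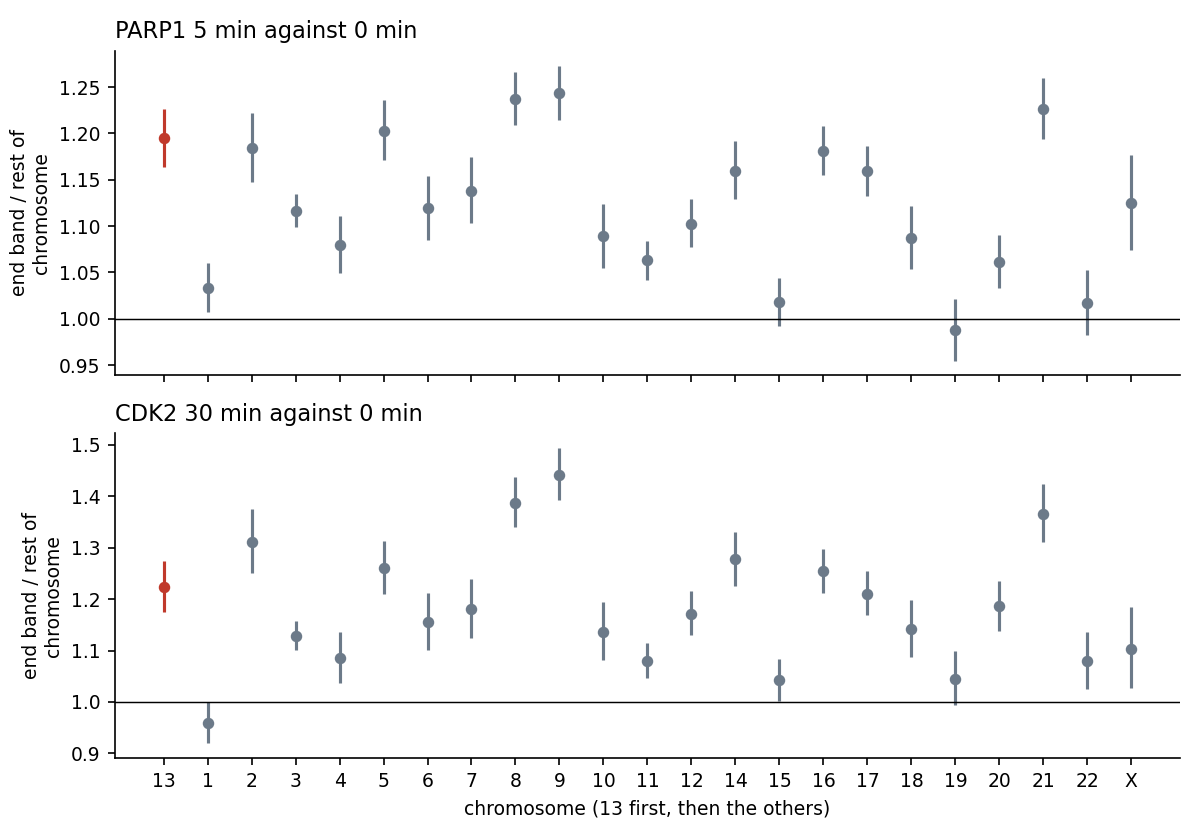
Ratio to 0 min in the last 5169878 bases of each chromosome divided by that in the rest of the chromosome, for PARP1 at 5 min (top) and CDK2 at 30 min (bottom); chromosome 13 is drawn first and in red, and bars are 95% intervals of counting error widened by the dispersion. Chromosome 13 lies at 1.19 and 1.22, within the range of the others.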

How the data were processed

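The authors deposited raw read counts per 10 kb window, without normalization, for chromosomes 1 to 22 and X. Bowtie 1.0.0 and hg19 (GRCh37) are named in the submitters' processing notes. The sources used here do not give the handling of duplicates or of reads with several matches. Members, segments and lists were chosen with earlier results of these data known. Ratios are ratios of summed counts scaled by library totals. Interval variances are the counts' variances times the dispersion, the robust variance of differences between neighbouring windows over its Poisson expectation. The alternatives were other scalings, count minimums, limits, thinning and band borders, and 5 more were added after seeing the data. With 1 library per group no test was run. Windows were named as the 5 of highest mean and, per comparison with 0 min, the 2 higher and 2 lower ones past 2-fold with a mean of at least 100 whose interval bound lay farthest from 1. Blocks were named as all 5 of the band and the 3 highest and 3 lowest before it. The fixed gene lists were not evaluated, since no hg19 gene table was used here. Scripts were tested on simulated data. Python 3.11.15, numpy 2.4.6, scipy 1.17.1, pandas 2.3.3, matplotlib 3.10.9 and R 4.3.3 were used, with edgeR 4.0.16 (TMM) and DESeq2 1.42.0 (median of ratios) for alternative scaling factors only. Positions are 1-based.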

Additional observations from a re-analysis of the deposited data

Results flagged for a closer look

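At 5 min the antibodies lay on opposite sides of 1 in summed reads. The ratio in the distal band divided by that in the rest of 13q was 0.926 for CDK2 and 1.19 for PARP1. Over all of 13q the ratio to 0 min was 1.02 for CDK2 and 0.952 for PARP1. By the median of window ratios both lay below 1, at 0.976 for CDK2 and 0.948 for PARP1. Divided by that median over all windows of the genome, they were 1.02 and 0.957. With 1 library per antibody and time the difference between the antibodies was not tested. The dispersion of 52.2 in the CDK2 library at 5 min, against 11.4 in the PARP1 library at 5 min, goes with it, and its part was not tested. Outside the members, the 101 windows of the arm under the count minimum held 1159 reads over the 6 libraries, and 55 of these windows were empty in all 6.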

How the results depend on the processing

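The quotient of the distal band and the rest of 13q kept its side of 1 under every alternative run except for CDK2 against PARP1 at 0 min, where it was 0.999 with the band begun 2 Mb earlier. With that earlier start it was 1.14 for PARP1 at 5 against 0 min, 1.08 for PARP1 at 30 against 0 min, 1.16 for CDK2 at 30 against 0 min, 1.22 for CDK2 at 30 against 5 min and 0.836 for CDK2 against PARP1 at 5 min. With the band begun 2 Mb later it was 1.3 for CDK2 at 30 against 0 min, 1.42 for CDK2 at 30 against 5 min and 1.16 for CDK2 against PARP1 at 30 min. Against 19 to 54 Mb, chosen after seeing the data, it was 1.12, 1.06, 1.13, 1.19 and 0.850 in the 5 comparisons named for the earlier start.

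The ratio of all 13q moved with scaling, and the cause was not tested. With TMM factors, median-of-ratios factors and sparse-window scaling it was 0.961, 0.961 and 0.984 for PARP1 at 5 against 0 min, 1.07, 1.07 and 1.3 for CDK2 at 5 against 0 min, 0.979, 0.985 and 1.03 for CDK2 at 30 against 0 min, 1.12, 1.12 and 1.33 for CDK2 against PARP1 at 5 min, and 1.00, 1.01 and 1.04 for CDK2 against PARP1 at 30 min, where the main value was 0.971. Under sparse-window scaling it was 0.998 for PARP1 at 30 against 0 min, 1.01 at 30 against 5 min and 0.791 for CDK2 at 30 against 5 min. The median of window ratios, added after seeing the data, was 0.976 and 0.914 for CDK2 at 5 and 30 against 0 min and 1.02 and 0.932 for CDK2 against PARP1 at 5 and 30 min.

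Blocks of 13q outside 0.9 to 1.1 numbered 32 and 17 for PARP1 at 5 and 30 min and 13 and 43 for CDK2. Past the wider limit of 0.8 and its inverse they numbered 0, 0, 0 and 7. For CDK2 at 5 min they were 30, 33 and 95 under the 3 scalings. The block from 114000001 turned to 1.06 in CDK2 at 5 min under sparse-window scaling. Windows past 2-fold numbered 242 and 79 for PARP1 and 2243 and 1713 for CDK2. Past 1.5-fold they were 1575, 886, 4517 and 3957, and past 3-fold 16, 5, 829 and 504. Shares of the genome were not counted at these 2 limits or at the wider block limit. The counts there therefore do not set 13q against the genome. Empty windows in CDK2 at 30 min were 42 without a minimum and 1 at a mean of at least 50. In all values without a minimum, windows empty in every library were still left out. The median window of 13q relative to that of the genome was 0.960 for CDK2 at 0 min and 0.973 without a minimum, and 0.938 for PARP1 at 30 min, with 0.947 without a minimum and 0.947 without the top windows. No paired analysis was possible because each antibody and time has 1 library and the labels carry no replicate numbers. The median compared window of the genome held between 130 and 208 reads, so single windows carry wider intervals than blocks.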

Other observations

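Within the first part of the arm, blocks from 35 to 39 Mb had ratios to 0 min below 1 for PARP1 at 5 and 30 min and for CDK2 at 30 min, with the lowest in the last of them. The block 38000001 to 39000000 held 157, 142 and 166 PARP1 reads per window at 0, 5 and 30 min and had a ratio to 0 min of 0.861 (0.804 to 0.921) at 5 min and 0.925 (0.872 to 0.981) at 30 min. For CDK2 it held 128, 164 and 90.3 reads per window, with ratios to 0 min of 0.997 (0.884 to 1.12) at 5 min, which turned to 1.27 under sparse-window scaling, and 0.791 (0.708 to 0.885) at 30 min. CDK2 and PARP1 did not differ there beyond the interval at 0 min, with 1.01 (0.948 to 1.07). The block before it had 0.973 (0.911 to 1.04) for PARP1 at 5 min and 0.868 (0.779 to 0.968) for CDK2 at 30 min. This stretch was picked with its values already in view.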
